A study of Mus musculus with 6 samples.

Results

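The genes described here are 36 genes of cholesterol and fatty acid synthesis under the sterol regulatory element-binding proteins (SREBPs). They were taken by symbol from a table of 55385 gene rows, and all 36 symbols were found. The set holds 19 enzymes of sterol synthesis, 5 SREBP control genes, 3 genes of sterol transport and 9 genes of fatty acid synthesis. Gene expression had been measured by mRNA sequencing in mouse Neuro2A (N2A) cells, a neuroblastoma line that the labels give as neuroblasts. Cells of 3 libraries had received si-circCpsf6, a small interfering RNA against circCpsf6, and cells of the other 3 had received the comparison siRNA si-NC. CircCpsf6 is named as a circular RNA of the Cpsf6 gene, whose protein takes part in processing the 3' ends of mRNAs. Both siRNAs were used at 100 nM with the same lipid reagent, in medium with fetal bovine serum. No time after transfection, genotype or further treatment is given in the labels, and nothing there says that replicates are independent cultures. The p-values therefore describe the spread among these 6 libraries, part of which may be technical.

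SREBPs are transcription factors made as membrane proteins of the endoplasmic reticulum. When sterols are plentiful, the escort protein Scap and its SREBP are held there by Insig1 and Insig2. When sterols run low, Scap carries the SREBP to the Golgi, where the site-1 and site-2 proteases cut it and free the part that enters the nucleus. SREBP-2, the product of Srebf2, mainly drives sterol synthesis, and SREBP-1c, a product of Srebf1, mainly drives fatty acid synthesis. The liver X receptors (LXRs) work in the opposite situation: they are switched on by oxysterols and drive sterol export through Abca1, and they also drive Srebf1. The brain makes most of the cholesterol it uses, and the source of cholesterol in these cultured cells was not measured.

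Values are FPKM, which scale fragments to the length of the transcript and the size of the library. The text gives FPKM as levels, and log2 fold changes as differences between group means of log2(FPKM + 1), si-circCpsf6 minus si-NC, with the standard error (SE) of limma. A gene is called higher or lower where limma gave a Benjamini-Hochberg adjusted p under 0.05 over the 12974 genes tested, which averaged 1 FPKM or more across the 6 libraries. All 36 genes passed that filter.

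Regulatory sequence was read for the genes around which the comparison turned. Promoters from 250 bases before to 50 bases after the start site were in the RefSeq table (GRCm38.p6) for 28 of the 36 genes. The capitals mark letters that a search of both strands found: CACGTG (the E-box) and a DR4-type pair of half-sites (the direct repeat that LXRs bind, in a relaxed form) in the Abca1 promoter, CCAAT (the box bound by NF-Y, a known partner of SREBPs) and the E-box in the Insig1 promoter, and TCACNCCAC (the core of a sterol regulatory element) with CCAAT in the Hmgcs1 promoter. Abca1 is shown because it was the gene that passed the test, Insig1 because it had the largest fold change of the 36, and Hmgcs1 because it was the gene with a match to the sterol regulatory element core. They lie at chr4:53159846-53160145 on the minus strand, chr5:28071162-28071461 on the plus strand and chr13:119690101-119690400 on the plus strand.
Abca1: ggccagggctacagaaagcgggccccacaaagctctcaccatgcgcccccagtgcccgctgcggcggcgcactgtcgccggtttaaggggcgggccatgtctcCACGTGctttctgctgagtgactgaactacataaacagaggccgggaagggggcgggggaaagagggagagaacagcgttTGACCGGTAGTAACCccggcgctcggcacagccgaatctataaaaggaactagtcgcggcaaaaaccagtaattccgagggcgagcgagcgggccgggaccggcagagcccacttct
Insig1: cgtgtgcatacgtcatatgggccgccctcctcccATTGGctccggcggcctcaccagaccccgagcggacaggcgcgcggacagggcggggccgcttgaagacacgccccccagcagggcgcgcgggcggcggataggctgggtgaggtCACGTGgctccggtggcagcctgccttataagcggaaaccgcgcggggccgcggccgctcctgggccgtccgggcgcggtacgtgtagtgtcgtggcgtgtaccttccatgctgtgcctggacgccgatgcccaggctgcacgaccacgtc
Hmgcs1: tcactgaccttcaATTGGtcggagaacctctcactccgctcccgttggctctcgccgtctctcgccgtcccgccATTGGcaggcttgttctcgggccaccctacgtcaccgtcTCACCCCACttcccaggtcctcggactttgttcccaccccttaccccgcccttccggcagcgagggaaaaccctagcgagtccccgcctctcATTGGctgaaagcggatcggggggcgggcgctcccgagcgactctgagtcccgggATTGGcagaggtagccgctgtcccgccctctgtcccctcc

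In the Abca1 promoter the E-box began at -147 and the half-site match at -67 from the start site. In the Insig1 promoter the CCAAT match began at -216 and the E-box at -101. The Hmgcs1 promoter held the sterol regulatory element core at -137 and 4 CCAAT matches, at -237, -176, -45 and 10. CCAAT was in 22 of the 28 promoters (78.6%), against 43.9% of the promoters of 8860 tested genes. CACGTG was in 7 of 28 (25%) against 12%, in Abca1, Dhcr7, Elovl5, Hsd17b7, Insig1, Sc5d and Scap. The half-site match was in 3 of 28 (10.7%), in Abca1, Fasn and Srebf1, against 0.553% of tested genes. TCACNCCAC was in 1 of 28 (3.57%) against 1.41%; none of these motifs contains another. A match describes letters in this window, and binding was not measured.

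A further regulatory RNA lies inside one of the 36 genes. The miRNA mmu-miR-33-5p is encoded at chr15:82198127-82198147 on the plus strand, within Srebf2 and outside its annotated exons, and Abca1 is a known target of it. Its mature sequence is shown with the seed (bases 2 to 8) in capitals, followed by 30 bases of the Abca1 3' UTR (bases 131 to 160 of that UTR, chromosome 4) with the matches to the seed in capitals.
mmu-miR-33-5p: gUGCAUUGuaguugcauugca
Abca1 site: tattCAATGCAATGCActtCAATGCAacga

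The Abca1 window held 3 copies of CAATGCA, the sequence complementary to the seed, and the first and second copies overlap. Acaca and Nsdhl were the other members with a copy, so that 3 of 36 genes (8.33%) had one, against 7.03% of 10630 tested genes with an annotated 3' UTR. The miRNA itself was not measured in these libraries.

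Before the results, 1 library has to be named. In si-NC replicate 2 the level was the lowest of the 6 libraries for 32 of the 36 genes (88.9%), whereas that library was the lowest for 14.9% of all tested genes. It was the lowest for 18 of the 19 sterol synthesis enzymes (94.7%) and for 9 of 9 fatty acid synthesis genes. The 4 exceptions were Abca1, Insig2, Npc1 and Ggps1. The median deviation of the 36 genes from their own mean over the 6 libraries was 0.37, 0.04 and 0.25 log2 units in si-circCpsf6 replicates 1, 2 and 3, against 0.07, -0.72 and 0.03 in si-NC replicates 1, 2 and 3. Over all tested genes the same median lay between -0.04 and 0.02 in each library, so the low values of si-NC replicate 2 were not shared by the library as a whole. Within si-circCpsf6, replicate 1 was the highest of the 6 libraries for 19 of the 36 genes (52.8%, against 20.9% of all tested genes). Replicate 2 was the lowest of the si-circCpsf6 group for 24 genes (66.7%, against 30.1% of all tested genes). Values without si-NC replicate 2 are therefore given beside those with all 6 libraries where they differ by over 1.5 times, for single genes or as a range over a group.

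**Figure D1:**
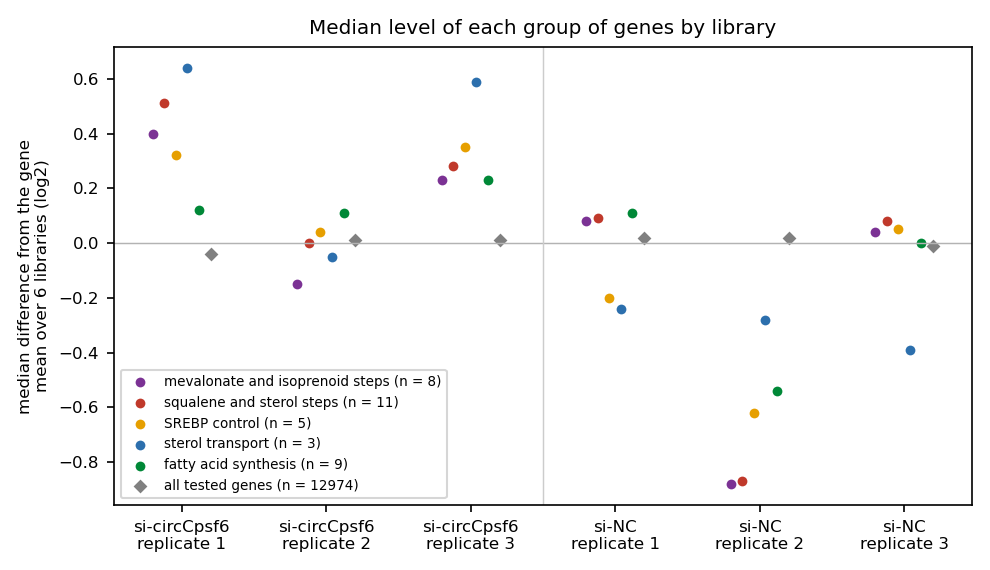
Median difference of each group of genes from the genes' own means over the 6 libraries (vertical axis, log2 units of FPKM + 1) in each library (horizontal axis, si-circCpsf6 left of si-NC), with 1 point for each group of genes and grey diamonds for all tested genes. The points of both groups of sterol synthesis steps lie at -0.88 and -0.87 in si-NC replicate 2, whereas the grey diamonds stay between -0.04 and 0.02.

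Summed FPKM ranged from 327555 to 356523 over the 6 libraries, and 12671 to 13080 genes reached 1 FPKM; the depth in fragments is not known, because the table holds no counts. The host gene Cpsf6 had 10.65, 15.06 and 14.5 FPKM in si-circCpsf6 and 14.09, 14.5 and 15.2 FPKM in si-NC (log2 fold change -0.13, SE 0.15, adjusted p = 0.688); since 1 value covers circle and linear mRNA together, it is no check of the knockdown. Of 12 neuroblastoma and neuron markers, Nefl and Nefm were at or below 0.04 FPKM in every library. Their summed level was 727 to 806 FPKM in si-circCpsf6 and 974 to 1168 FPKM in si-NC, and of 9 tested markers Chga, a protein of secretory granules, fell (-1.10, adjusted p = 0.0335). The summed level of 7 fibroblast markers was 5.53 to 11.5 FPKM in si-circCpsf6 and 2.54 to 10.6 FPKM in si-NC, and Pdgfrb among them was called higher (1.42, adjusted p = 0.0455). The sum of 5 macrophage markers was 1.01 to 1.16 FPKM in si-circCpsf6 and 1.15 to 1.49 FPKM in si-NC. The sum of 7 glial markers was 1.51 to 3.15 FPKM in si-circCpsf6 and 3.34 to 4.18 FPKM in si-NC, with Aqp4 and Mag at 0, and that of 4 endothelial markers was 1.59 to 3.19 FPKM in si-circCpsf6 and 0.79 to 1.21 FPKM in si-NC. In such bulk libraries fewer cells of a type and less RNA per cell cannot be told apart. The part of these shifts in the results below was not tested.

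Setting si-circCpsf6 against si-NC asks which mRNAs differ after the siRNA against circCpsf6. Of the 36 genes, 33 had a log2 fold change above 0 (91.7%), whereas 47.2% of all tested genes did. The median was 0.44, against -0.02 over all tested genes. Abca1, the transporter that exports cholesterol to lipoproteins, was the 1 gene called higher (all tested genes: 0.902% called higher), and 0 genes were called lower by limma (0.786%). At an unadjusted p under 0.05, 7 genes were higher (all tested genes: 10.2%) and 0 were lower (10.1%). In 10 genes (27.8%) all 3 si-circCpsf6 values lay above all 3 si-NC values, against 12.8% of all tested genes, and in 0 genes they lay below (14%). In the other 26 genes the groups overlapped.

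The lead of 33 genes above 0 rested in large part on si-NC replicate 2. Without that library 26 of 36 genes were above 0, the median was 0.15, and 5 genes were higher at an unadjusted p under 0.05 (all tested genes: 9.47%): Abca1, Insig2, Insig1, Scd2 and Elovl5. For the 19 sterol synthesis enzymes the median was 0.08 without it, in place of 0.41. Leaving out any other single library gave medians of 0.31 to 0.55 for the 36 genes. The values without si-NC replicate 2 keep si-circCpsf6 replicate 2, which was the lowest of its group for 24 of the 36 genes. Whether replicate numbers pair libraries in these genes was not tested. The cause of the low values in si-NC replicate 2 was not tested.

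**Figure D2:**
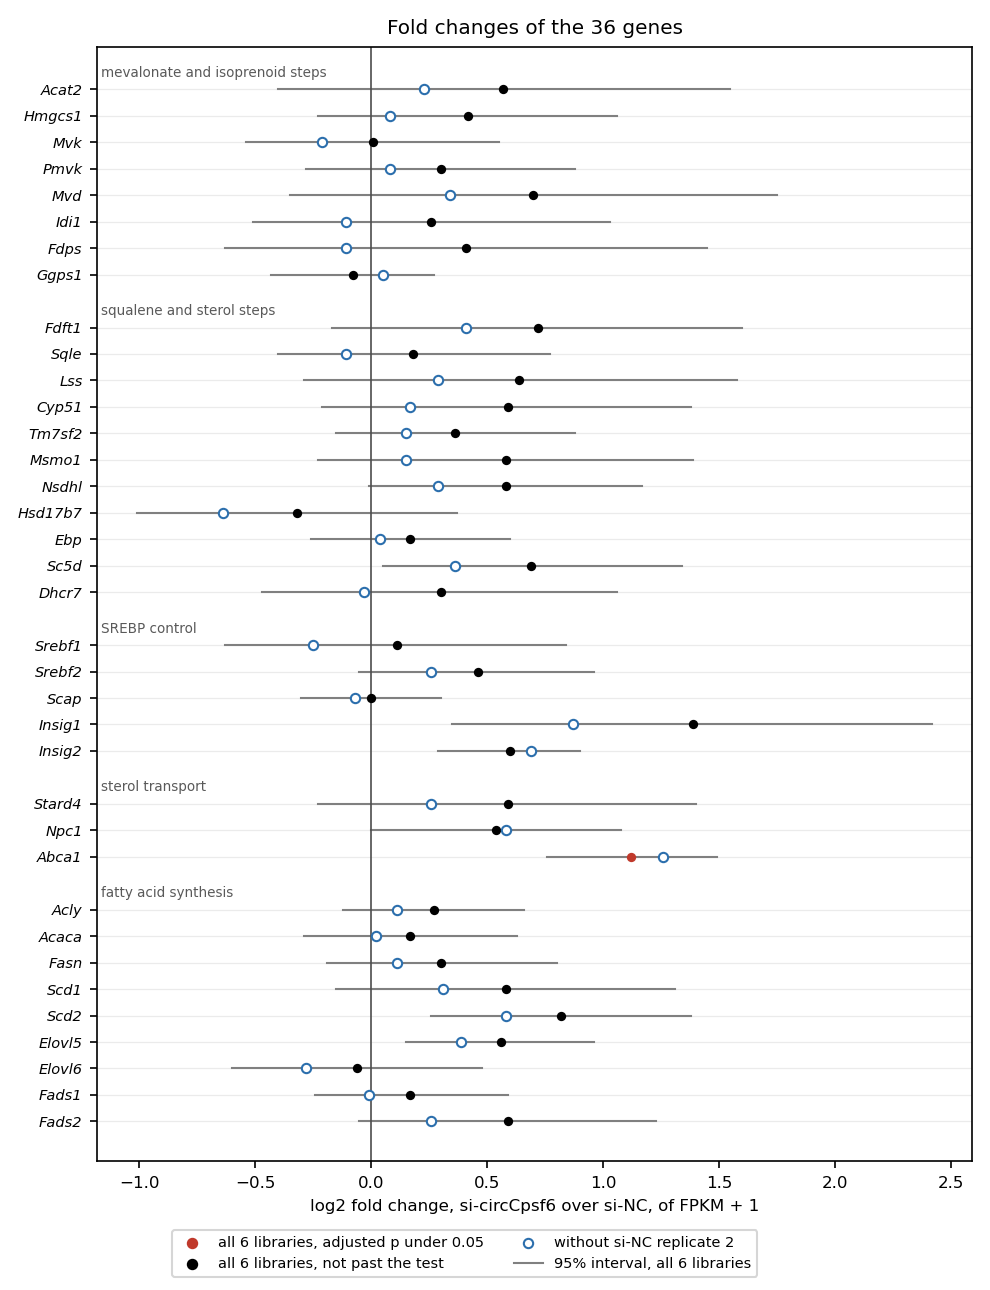
Log2 fold change of each of the 36 genes (horizontal axis, si-circCpsf6 over si-NC, of FPKM + 1) by role, with filled points and 95% intervals from all 6 libraries and open points without si-NC replicate 2. Abca1 (red) is the gene that passed the test, and the open points of most synthesis enzymes lie nearer to 0 than the filled ones.

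The 5 SREBP control genes all lay at or above 0 (0.00 to 1.39, median 0.46), and none was called by limma. At an unadjusted p under 0.05, 2 were higher (all tested genes: 10.2%). Without si-NC replicate 2 the median was 0.26. Srebf1 then lay at -0.25 and Scap at -0.07, and Insig1, Insig2 and Srebf2 stayed above 0. Insig1, the sterol-regulated anchor that is itself an SREBP target, lies at chromosome 5, 28071363 to 28078662, plus strand (ENSMUSG00000045294). Its level was 135.81, 66.73 and 89.36 FPKM in si-circCpsf6 replicates 1, 2 and 3, against 49.6, 16.77 and 51.22 FPKM in si-NC replicates 1, 2 and 3. The groups did not overlap, and the lowest value was again that of si-NC replicate 2. Means were 97.3 ± 35.2 FPKM in si-circCpsf6 and 39.2 ± 19.4 FPKM in si-NC (SD, n = 3 each), with a log2 fold change of 1.39 (SE 0.44, 95% interval 0.35 to 2.42, adjusted p = 0.145). Without si-NC replicate 2 the log2 fold change was 0.87. In the authors' deposited table the ratio for Insig1 was 2.48 with a q-value of 0.02, and the gene was marked as significant.

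Insig2, the second anchor, which is not a classic SREBP target, lies at chromosome 1, 121304353 to 121332589, minus strand (ENSMUSG00000003721). It had 15.75, 14.57 and 16.16 FPKM in si-circCpsf6, against 9.17, 11.33 and 9.31 FPKM in si-NC. Here the groups also did not overlap, the spread within each was small, and si-NC replicate 2 was the highest of its group. The log2 fold change was 0.60 (SE 0.13, 95% interval 0.29 to 0.90), which missed the threshold at an adjusted p of 0.0686. It ranged from 0.55 to 0.69 over all alternatives, and the adjusted p from 0.0546 to 0.271.

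Srebf2, which encodes SREBP-2 (chromosome 15, 82147181 to 82205379, plus strand), had 85.83, 63.49 and 69.43 FPKM in si-circCpsf6 and 52.64, 39.81 and 68.94 FPKM in si-NC. The si-NC replicate 3 value lay inside the si-circCpsf6 range, and the log2 fold change of 0.46 (SE 0.22) did not pass the test (adjusted p = 0.294) and was 0.26 without si-NC replicate 2. Srebf1, which encodes SREBP-1, had 36.66, 26.76 and 42.95 FPKM in si-circCpsf6 and 42.77, 19.36 and 40.36 FPKM in si-NC. The groups overlapped over nearly their whole range (0.11, SE 0.31, adjusted p = 0.886), and without si-NC replicate 2 the difference was -0.25. Scap, the escort, had 14.58, 15.34 and 17.0 FPKM in si-circCpsf6 and 16.69, 14.03 and 16.17 FPKM in si-NC. Both means were 15.6 FPKM, and the 95% interval of the log2 fold change ran from -0.30 to 0.30.

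The 8 enzymes of the mevalonate and isoprenoid steps carry acetyl-CoA to farnesyl and geranylgeranyl diphosphate. Of these, 7 were above 0 (median 0.36), and none was called by limma. None was at an unadjusted p under 0.05 in either direction (all tested genes: 10.2% higher and 10.1% lower). None had groups that did not overlap (all tested genes: 12.8% higher and 14% lower). Acat2, the cytosolic thiolase that begins the pathway, averaged 37.4 ± 19.9 FPKM in si-circCpsf6 and 23.8 ± 8.73 FPKM in si-NC (SD, n = 3 each, as below). Hmgcs1, which makes HMG-CoA and whose promoter is shown above, averaged 54.6 ± 5.17 FPKM in si-circCpsf6 and 42.8 ± 15.7 FPKM in si-NC. Its log2 fold change was 0.42 (SE 0.28, adjusted p = 0.45), and 0.08 without si-NC replicate 2. Mevalonate decarboxylase (Mvd) averaged 43.8 ± 26.5 FPKM in si-circCpsf6 and 24.9 ± 9.56 FPKM in si-NC, where the 73.42 FPKM of si-circCpsf6 replicate 1 stood far above the other libraries (13.94 to 35.41 FPKM). Mevalonate kinase (Mvk), the least abundant of the 36 genes, averaged 2.31 ± 0.52 FPKM in si-circCpsf6 and 2.35 ± 0.87 FPKM in si-NC.

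Phosphomevalonate kinase (Pmvk) averaged 36.6 ± 9.49 FPKM in si-circCpsf6 and 29.6 ± 7.92 FPKM in si-NC. The isomerase Idi1 averaged 28.2 ± 6.19 FPKM in si-circCpsf6 and 24.7 ± 10.8 FPKM in si-NC, and farnesyl diphosphate synthase (Fdps) 29.0 ± 10.0 FPKM in si-circCpsf6 and 23.4 ± 11.9 FPKM in si-NC. Geranylgeranyl diphosphate synthase (Ggps1), which leads away from sterols to the prenylation of proteins, averaged 7.88 ± 0.54 FPKM in si-circCpsf6 and 8.43 ± 1.47 FPKM in si-NC. It was the 1 gene of the 36 that was highest in si-NC replicate 2, at 10.11 FPKM. Without that library the median of the 8 genes was 0.06, and their log2 fold changes ran from -0.21 to 0.34.

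The 11 enzymes of the squalene and sterol steps turn farnesyl diphosphate into cholesterol. Of these, 10 were above 0, and none was called by limma. The median was 0.58, and 0.15 without si-NC replicate 2, which was the lowest library for 11 of 11. At an unadjusted limma p under 0.05, 1 was higher (all tested genes: 10.2%). In 2 genes the groups did not overlap, with si-circCpsf6 higher (18.2%, against 12.8% of all tested genes). Those 2 were Sc5d and Nsdhl. Sc5d, the sterol desaturase, had 10.86, 9.82 and 12.4 FPKM in si-circCpsf6, against 8.48, 3.65 and 8.21 FPKM in si-NC (0.69, SE 0.28, adjusted p = 0.216, and 0.36 without si-NC replicate 2). Nsdhl, a dehydrogenase that helps to strip methyl groups from the sterol ring, had 19.56, 15.84 and 14.79 FPKM in si-circCpsf6, against 13.77, 6.87 and 13.06 FPKM in si-NC (0.58, SE 0.25, adjusted p = 0.252, and 0.29 without si-NC replicate 2). In both genes si-NC replicates 1 and 3 lay close below the lowest si-circCpsf6 value, and si-NC replicate 2 lay far below.

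Squalene synthase (Fdft1), the first enzyme committed to sterols, had 77.19, 39.02 and 31.08 FPKM in si-circCpsf6 and 30.95, 17.4 and 37.42 FPKM in si-NC. The groups overlapped (0.72, SE 0.38, adjusted p = 0.342, and 0.41 without si-NC replicate 2). Exons of Fdft1 overlap those of Ctsb on the other strand. Ctsb had 159.09, 93.3 and 110.21 FPKM in si-circCpsf6 and 90.65, 86.75 and 83.39 FPKM in si-NC. Reads in such shared stretches cannot be told apart where strand was not used. The part of Ctsb in the Fdft1 values was not tested. Other members with overlapping exons of an expressed gene include Tm7sf2 (Vps51, on the same strand, at up to 7.22 FPKM), Npc1 (Rmc1, up to 5.03 FPKM), Ggps1 (Arid4b, up to 4.92 FPKM), Cyp51 (Akap9, up to 7.37 FPKM) and Srebf1 (Rai1, up to 10.44 FPKM). Hsd17b7, a ketoreductase of the same demethylation steps as Nsdhl, had a log2 fold change of -0.32 and averaged 6.03 ± 1.39 FPKM in si-circCpsf6 and 8.12 ± 3.33 FPKM in si-NC. Without si-NC replicate 2 its log2 fold change was -0.64 (unadjusted p = 0.0203, limma, adjusted p = 0.188).

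The other 7 enzymes had log2 fold changes of 0.17 to 0.64 and overlapping groups. Lanosterol synthase (Lss) averaged 20.8 ± 9.15 FPKM in si-circCpsf6 and 12.7 ± 4.95 FPKM in si-NC. The lanosterol demethylase Cyp51 averaged 56.5 ± 11.0 FPKM in si-circCpsf6 and 39.7 ± 16.8 FPKM in si-NC, and the methylsterol oxidase Msmo1 17.8 ± 2.83 FPKM in si-circCpsf6 and 12.6 ± 5.83 FPKM in si-NC. Squalene epoxidase (Sqle), a rate-limiting enzyme, averaged 54.5 ± 7.06 FPKM in si-circCpsf6 and 49.5 ± 15.6 FPKM in si-NC. The reductase Tm7sf2 averaged 3.19 ± 0.59 FPKM in si-circCpsf6 and 2.30 ± 0.78 FPKM in si-NC, the isomerase Ebp 6.98 ± 1.25 FPKM in si-circCpsf6 and 6.10 ± 1.20 FPKM in si-NC, and Dhcr7, a reductase of the last steps, 17.7 ± 6.09 FPKM in si-circCpsf6 and 14.4 ± 5.33 FPKM in si-NC. Without si-NC replicate 2 the log2 fold changes of these 7 enzymes ran from -0.11 to 0.29, and those of Sqle and Dhcr7 were below 0.

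**Figure D3:**
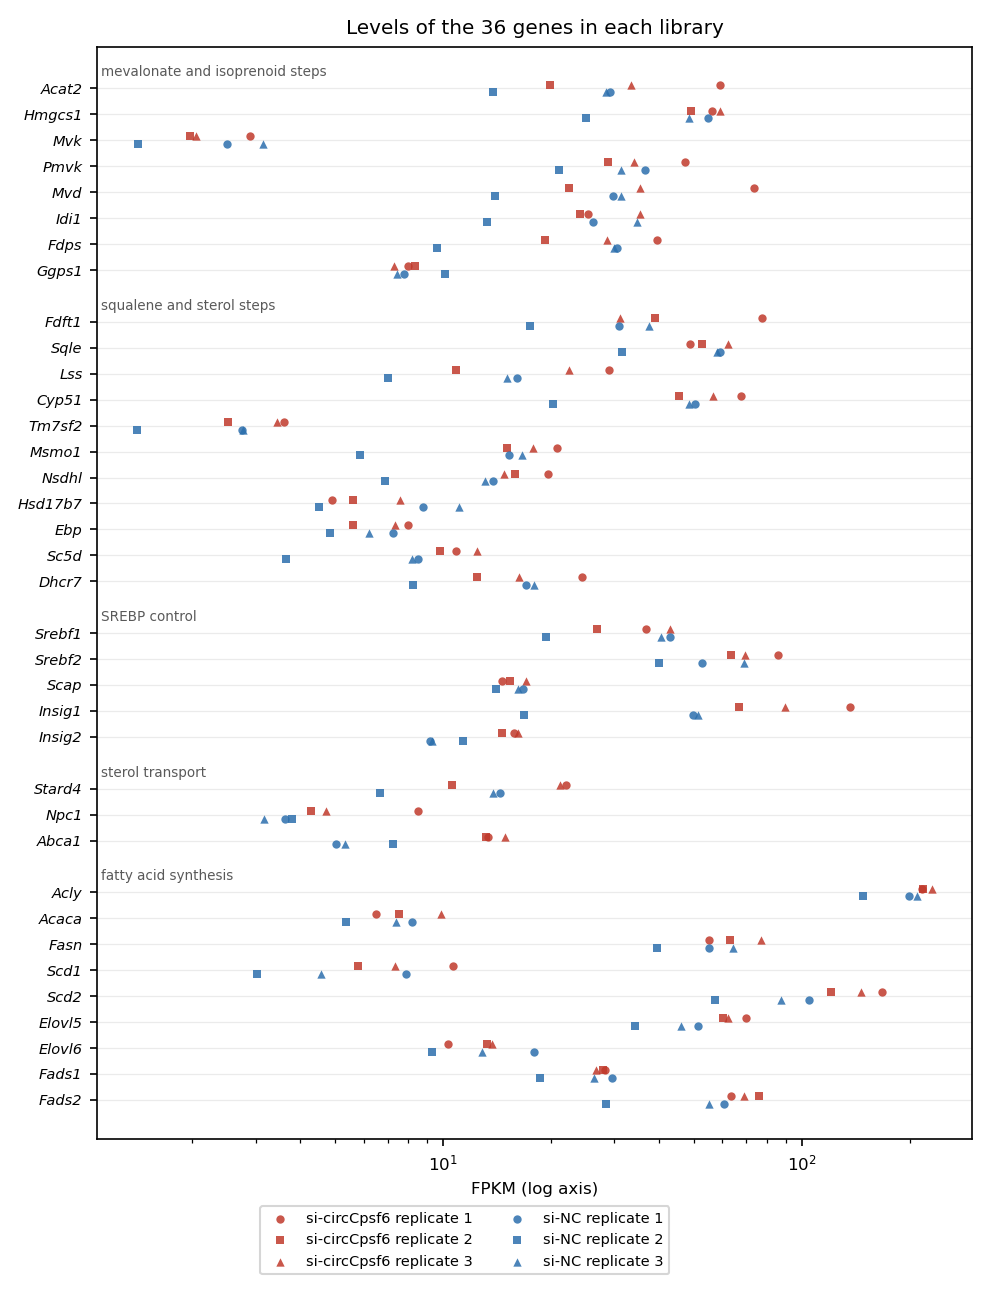
FPKM of each of the 36 genes in each library (horizontal log axis; si-circCpsf6 in red above si-NC in blue, with a marker for each replicate number), grouped by role. The blue squares of si-NC replicate 2 are the lowest point in 32 of 36 rows, and Abca1, Insig2, Npc1 and Ggps1 are the exceptions.

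Sterol transport held the gene that was called higher. Abca1 (ENSMUSG00000015243, chromosome 4, 53030787 to 53159895, minus strand) had 13.32, 13.19 and 14.86 FPKM in si-circCpsf6, against 5.02, 7.23 and 5.31 FPKM in si-NC. The groups did not overlap and were wide apart, and si-NC replicate 2 was the highest of its group, the reverse of its place in the synthesis genes. Means were 13.8 ± 0.93 FPKM in si-circCpsf6 and 5.85 ± 1.20 FPKM in si-NC (SD, n = 3 each), and the log2 fold change was 1.12 (SE 0.16, 95% interval 0.76 to 1.49, adjusted p = 0.0287). Abca1 was higher in 3 of 3 si-circCpsf6 libraries than in any si-NC library, and the authors' deposited table gave a ratio of 2.36 and marked it as significant. The size of the difference was 1.04 to 1.26 under every alternative. The call held without si-NC replicate 2 (adjusted p = 0.0374) and was lost without any other single library (adjusted p = 0.0511, 0.0649 and 0.09 without si-circCpsf6 replicates 1, 2 and 3, and 0.0888 and 0.141 without si-NC replicates 1 and 3); over all alternatives the adjusted p ran from 0.0221 to 0.141.

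Npc1, which moves cholesterol out of the lysosome, had 8.5, 4.27 and 4.7 FPKM in si-circCpsf6, against 3.63, 3.79 and 3.17 FPKM in si-NC. The groups did not overlap, and si-circCpsf6 replicate 1 stood far above the other libraries. The log2 fold change was 0.54 (SE 0.23, adjusted p = 0.245), and 0.28 without that library. Stard4, a sterol carrier of the cytosol, averaged 17.9 ± 6.37 FPKM in si-circCpsf6 and 11.6 ± 4.29 FPKM in si-NC, with overlapping groups (0.59, SE 0.35, adjusted p = 0.401, and 0.26 without si-NC replicate 2).

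Fatty acid synthesis held 9 genes, of which 8 were above 0 (median 0.30, and 0.11 without si-NC replicate 2). None was called by limma, and 2 were higher at an unadjusted p under 0.05 (all tested genes: 10.2%). In 4 the groups did not overlap, with si-circCpsf6 higher (44.4%, against 12.8% of all tested genes). Scd2, the stearoyl-CoA desaturase most abundant in mouse brain, had 166.65, 120.18 and 145.98 FPKM in si-circCpsf6, against 104.88, 57.15 and 87.2 FPKM in si-NC. Each si-circCpsf6 value lay above all si-NC values, and the log2 fold change was 0.82 (SE 0.24, adjusted p = 0.121), or 0.58 without si-NC replicate 2. The authors' deposited table gave Scd2 a q-value of 0.04 without marking it as significant; the smallest absolute log2 fold change among its marked genes was 1.0, and that of Scd2 in the table was 0.8. Scd1, its paralog, was far lower, at 10.64, 5.78 and 7.36 FPKM in si-circCpsf6 and 7.86, 3.02 and 4.55 FPKM in si-NC, and its groups overlapped (0.58, SE 0.31, adjusted p = 0.352, and 0.31 without si-NC replicate 2). How the authors counted reads that fit both desaturases is not stated.

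Elovl5, an elongase of polyunsaturated fatty acids, had 70.01, 60.37 and 62.08 FPKM in si-circCpsf6, against 51.19, 34.23 and 46.08 FPKM in si-NC (0.56, SE 0.17, adjusted p = 0.135). Fads2, a desaturase of the same route, had 63.46, 75.65 and 69.11 FPKM in si-circCpsf6, against 60.68, 28.42 and 55.11 FPKM in si-NC (0.59, SE 0.27, adjusted p = 0.28, and 0.26 without si-NC replicate 2). Neither pair of groups overlapped, and for Fads2 the gap between the nearest libraries was small. Acly, the citrate lyase that supplies cytosolic acetyl-CoA to both pathways and the most abundant of the 36 genes, had 215.67, 216.74 and 230.6 FPKM in si-circCpsf6, against 199.14, 147.65 and 208.78 FPKM in si-NC (0.27, SE 0.17, adjusted p = 0.423, and 0.11 without si-NC replicate 2).

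The 2 enzymes that build the fatty acid chain also had overlapping groups. Acetyl-CoA carboxylase (Acaca) averaged 7.96 ± 1.72 FPKM in si-circCpsf6 and 6.97 ± 1.44 FPKM in si-NC. Fatty acid synthase (Fasn) averaged 64.9 ± 11.1 FPKM in si-circCpsf6 and 53.0 ± 12.6 FPKM in si-NC (0.30, SE 0.21, adjusted p = 0.471, and 0.11 without si-NC replicate 2). The desaturase Fads1 averaged 27.6 ± 0.86 FPKM in si-circCpsf6 and 24.8 ± 5.61 FPKM in si-NC, and the elongase Elovl6 12.4 ± 1.85 FPKM in si-circCpsf6 and 13.3 ± 4.35 FPKM in si-NC. Groups overlapped in both, and without si-NC replicate 2 the log2 fold changes of Acaca, Fads1 and Elovl6 were 0.02, -0.01 and -0.28.

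Outside the 36 genes, 44 further genes of the same pathways were listed, of which 42 were tested. Of these, 21 lay above 0 and 21 below, with a median of -0.01, and the lists differed among themselves. Among the 42 tested, 1 was called higher and 2 lower (all tested genes: 0.902% and 0.786%). The 14 genes of sterol handling and SREBP processing had 6 above 0 (median -0.19). Groups did not overlap in 1 gene with si-circCpsf6 higher and in 3 with it lower (all tested genes: 12.8% and 14%). The 1 gene called lower was Mbtps2. Mbtps2 encodes the site-2 protease, which makes the last cut that frees SREBP from the membrane (chromosome X, 157535371 to 157598715, minus strand). It had 5.63, 6.08 and 5.65 FPKM in si-circCpsf6, against 11.27, 13.29 and 12.35 FPKM in si-NC. The groups lay far apart with little spread in either, and Mbtps2 fell by 0.97 on the log2 scale (SE 0.12, 95% interval -1.26 to -0.68, adjusted p = 0.0268). It shares exon sequence with Yy2 on the same strand, which was at 0.67, 1.11 and 0.27 FPKM in si-circCpsf6 and 2.83, 1.27 and 2.74 FPKM in si-NC. Leaving out si-circCpsf6 replicate 1 kept the call (adjusted p = 0.0465), and leaving out si-circCpsf6 replicate 2 or 3 or any si-NC library lost it (0.0639 to 0.136). Mbtps1, the site-1 protease, averaged 17.5 ± 0.71 FPKM in si-circCpsf6 and 16.2 ± 1.16 FPKM in si-NC (0.11, SE 0.12, adjusted p = 0.666), and is named as the partner of Mbtps2 after its values were seen.

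Of 5 LXR receptors and targets, Nr1h3 and Abcg1 had means under 1 FPKM and were not tested. The remaining 3 held 2 genes above 0 (median 0.01) and 1 called lower (all tested genes: 0.786%). That gene was Mylip, an LXR target whose ubiquitin ligase sends lipoprotein receptors to degradation. Mylip had 10.48, 8.63 and 13.88 FPKM in si-circCpsf6, against 23.02, 28.58 and 25.03 FPKM in si-NC. The groups did not overlap, and Mylip fell by 1.16 on the log2 scale (SE 0.18, adjusted p = 0.0335). The call was lost without any single library (adjusted p = 0.053 to 0.155). Lpcat3, another LXR target, which remodels phospholipids and is named after its values were seen, had 23.3, 25.93 and 21.78 FPKM in si-circCpsf6, against 17.74, 18.7 and 11.97 FPKM in si-NC. Its groups did not overlap, with si-circCpsf6 higher as for Abca1, but it was not called (0.55, SE 0.18, adjusted p = 0.16).

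The 13 further lipogenic genes had 8 above 0 (median 0.21). At an unadjusted limma p under 0.05, 5 were higher and 1 lower (all tested genes: 10.2% and 10.1%). In 5 the groups did not overlap with si-circCpsf6 higher (38.5%, against 12.8% of all tested genes). In 1 they did not overlap with si-circCpsf6 lower (all tested genes: 14%). The 1 called higher (all tested genes: 0.902%) was Lpin1, a phosphatidate phosphatase of glycerolipid synthesis. Lpin1 had 15.35, 10.27 and 11.95 FPKM in si-circCpsf6, against 5.83, 6.42 and 6.02 FPKM in si-NC (0.92, SE 0.16, adjusted p = 0.0436). The groups did not overlap, and the call was lost without any single library (adjusted p = 0.0576 to 0.186). The 12 genes of the non-sterol isoprenoid branches had 5 above 0 (median -0.06), and none was called by limma. At an unadjusted p under 0.05, 1 was higher and 1 lower (all tested genes: 10.2% and 10.1%). The higher gene was Dhdds of dolichol synthesis (0.56, SE 0.19, adjusted p = 0.159). Dhdds had 18.16, 15.91 and 19.74 FPKM in si-circCpsf6, against 15.68, 10.17 and 10.24 FPKM in si-NC. The lower gene was Coq2 of ubiquinone synthesis (-0.40, SE 0.14, adjusted p = 0.179). Coq2 had 6.52, 7.09 and 6.71 FPKM in si-circCpsf6, against 10.96, 8.89 and 8.08 FPKM in si-NC.

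**Figure D4:**
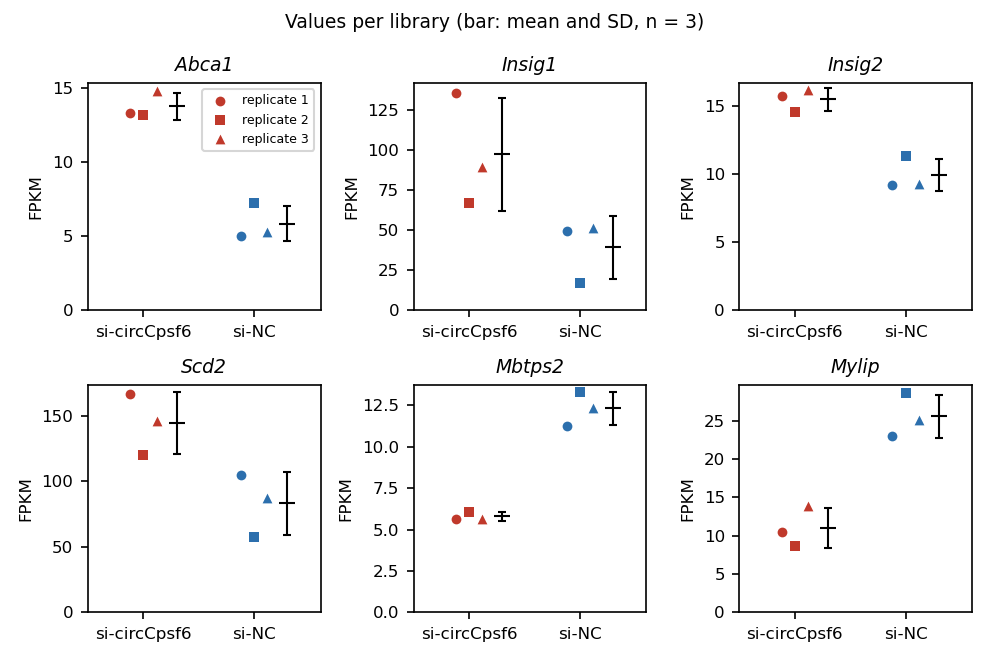
FPKM per library (points, a marker for each replicate number) with mean and SD (bars, n = 3) of Abca1, Insig1, Insig2, Scd2, Mbtps2 and Mylip, si-circCpsf6 left of si-NC. Abca1, Insig2, Mbtps2 and Mylip part the groups with si-NC replicate 2 (square) at the top of its group, whereas in Insig1 and Scd2 that library is the lowest.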

How the data were processed

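Neuro2A mRNA libraries (3 si-circCpsf6, 3 si-NC, grouped by title) were read from 1 deposited table. The authors deposited FPKM per gene and library and, per the file headers, p-values, q-values, a fold change as a ratio and its log2. Neither their test nor their FPKM program is stated. Bowtie 0.12.2, mm8 and mm9 appear in the submitters' processing notes, with no role. The labels name a small RNA kit, and strandedness is not stated.

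Counts and depth are not known, so a range of depths was assumed for each library. The highest share of low values within 0.1 of a whole read was 28.5 to 33.6%, so no count test was run. The share that would fall there without true counts was not computed. The 12974 genes averaging 1 FPKM or more were fitted with limma 3.58.1 in R 4.3.3 (trend) on log2(FPKM + 1), which understates changes of low genes, with Benjamini-Hochberg adjustment at 0.05. The test was checked on simulated data. Exact permutation of 3 against 3 libraries has a smallest p of 0.1 and was not used. Alternatives were quantile normalization, median centring, no filter, a filter at 5 FPKM, a pseudocount of 0.1, no trend, the replicate block, each library left out, and the authors' q-values and marks.

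The 36 genes and all lists were chosen with earlier results of these data known, so counts over them are descriptions. Values in every library are given for SREBP control genes, called genes, genes whose groups did not overlap and the 12 with the smallest p; of further lists, for called genes or up to 2 with the smallest p. Positions and 3' UTRs (the longest per gene, at least 50 bases) are from GENCODE M21 (GRCm38), and promoters and the miRNA from RefSeq (GRCm38.p6). Python 3.11.15 was used for sequences and figures.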

Additional observations from a re-analysis of the deposited data

How the results depend on the processing

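Over all tested genes, 117 were called higher and 102 lower. These counts were 4 and 9 with no filter, 6 and 5 with the replicate block, and 1 to 43 and 2 to 44 with 1 library left out. Abca1, the 1 called member, was not called with no filter (0 members) or the replicate block (0 members, Abca1 adjusted p = 0.0615), and 0 to 1 members were called with 1 library left out. The authors' q-values gave 3 members under 0.05 and their mark 2. The 1 further lipogenic gene called higher became 0 with no filter, the block and each library left out. The 1 sterol handling gene called lower became 0 with no filter and the block, and 0 to 1 with 1 library left out. The 1 LXR gene called lower became 0 in all of these. The sterol transport median of 0.59 was 0.85 with a mean of at least 5 FPKM, where Npc1 was not tested, and 0.41 to 0.91 with 1 library left out. Median centring, quantile normalization, the pseudocount of 0.1 and no trend kept 1 member called higher. The cause of these shifts was not tested.

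Same-numbered libraries correlated at 0.103, 0.129 and 0.084 over all tested genes in their deviations from the group means. Over genes in general that is not enough to take the numbers as pairs. Among the 36 genes, replicate 2 was the lowest of its group for 32 in si-NC and for 24 in si-circCpsf6. Whether the numbers pair libraries in these genes was not tested. With the block, 15 members were higher at an unadjusted p under 0.05, against 7 without it (all tested genes: 11% and 10.2%). Depth is unknown, so no counting error could be given. FPKM are shares of a library, so a change in other genes moves them.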

Other observations

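The heptamer GCAGAAT had been picked from 3' UTRs on these same libraries, so its counts are given as a description and support nothing. It was in the 3' UTR of 4 of 36 members (11.1%: Dhcr7, Fads1, Fasn and Nsdhl), against 10.2% of 10630 tested genes. The 4 members that held it had log2 fold changes above 0 (0.17 to 0.58), as had 33 of all 36 members. Of the 42 further genes, 8 held the heptamer (19%). A log2 fold change below 0 was seen in 7 of these 8, against 21 of all 42. Mbtps2 held 2 copies, shown with the heptamer in capitals and 11 bases on either side.
Mbtps2 first copy: ccaaacaactgGCAGAATttactagcatg
Mbtps2 second copy: tgcatgtctgtGCAGAATgtggcaaagct

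Npc2, the lysosomal partner of Npc1, was named after its values were seen. It had 33.8, 21.58 and 25.37 FPKM in si-circCpsf6, against 14.77, 13.72 and 14.51 FPKM in si-NC. The groups did not overlap, and the log2 fold change of 0.84 (SE 0.17, limma) missed the threshold at an adjusted p of 0.0595. Nfya, a subunit of the NF-Y factor that binds CCAAT, also named after its values were seen, had 7.24, 7.72 and 7.26 FPKM in si-circCpsf6, against 9.29, 13.75 and 13.8 FPKM in si-NC (-0.64, SE 0.17, adjusted p = 0.0997).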
